A study of Mus musculus with 6 samples.

Results

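The acetaminophen (APAP) bioactivation and conjugation enzymes were read as 10 genes of the mouse liver, each taken as the row of the deposited count table with that gene name. They comprised 3 genes of oxidation (Cyp2e1, Cyp1a2 and Por), 4 of glucuronidation (Ugt1a1, Ugt1a6a, Ugt1a9 and Ugdh), 2 of sulfation (Sult1a1 and Papss2) and 1 of glutathione conjugation (Gstp1), out of 34745 genes in the table. All 10 passed the filter on low counts, which left 13734 genes for testing.

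Bulk RNA-Seq of wild-type (WT) liver was compared between mice injected with APAP at 300 mg/kg, sampled 12 hours later, and mice given saline. The methods describe male mice aged 8 to 10 weeks, with C57BL/6J as the wild type. They give a fast of 12 hours before the injection of APAP or of saline. The labels of both groups give no other allele or agent. The labels give no sampling time for saline and do not say that each library came from its own animal, so p-values measure the spread between these libraries. The count table held 2 APAP libraries (replicates 1 and 3) and 3 libraries named WT1, WT2 and WT3, which were read as the saline group and could not be matched to single saline samples. APAP replicate 2 was not analysed here.

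APAP is cleared in the liver mainly by conjugation to glucuronic acid, which UDP-glucuronosyltransferases take from UDP-glucuronic acid, and to sulfate, which sulfotransferases take from the donor PAPS. A smaller part is oxidized by cytochrome P450 enzymes, which receive electrons from P450 oxidoreductase, to the reactive metabolite NAPQI. Glutathione traps NAPQI, spontaneously or through glutathione S-transferases, and the adduct is processed to a mercapturate. The P450 enzymes concerned are most abundant in the hepatocytes around the central vein, where an overdose kills cells first.

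Libraries held 13378445 to 15976339 counts, and 3 counts, taken as the floor of detection for counting error only, corresponded to 0.176 to 0.269 CPM (a gene's count scaled to an equal library size) after normalization by edgeR's TMM factors. Sex-linked genes separated the groups completely: Xist, the RNA of the inactive X chromosome, had levels of 0.763 and 1.73 CPM after APAP and between 289 and 913 CPM in the saline libraries, whereas the Y-linked Ddx3y was at 78.9 and 61.6 CPM after APAP against no more than 0.0667 CPM with saline. The saline libraries therefore do not carry the Y-linked expression of the male mice in the methods, and every difference given here between APAP and saline cannot be told apart from a difference between livers of unlike sex-linked expression. Alb, the albumin gene of hepatocytes, was at 51496 and 89712 CPM after APAP against 95010 to 128993 CPM with saline. Both APAP libraries were thus below the saline libraries, a difference that did not pass the test (edgeR adjusted p = 0.512).

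APAP livers held less RNA of most of these enzymes. Cyp2e1, Cyp1a2, Ugt1a1, Ugt1a6a, Ugt1a9, Sult1a1 and Papss2 fell, with mean levels at 13.6% to 37.8% of saline. Por, Ugdh and Gstp1 did not pass the test, and their mean levels were 117%, 145% and 263% of saline. By edgeR's quasi-likelihood test at a Benjamini-Hochberg adjusted p under 0.05, 7 of the 10 enzymes were lower and 0 were higher, where 3.53% of all tested genes were lower and 3.70% were higher. At an unadjusted p under 0.05 with a fold change of at least 1.5, 7 were lower and 1, Gstp1, was higher, beside 11.2% and 12.4% of all tested genes. Both APAP libraries lay below all 3 saline libraries for the same 7 enzymes and above them for Gstp1, which was the case for 20.1% and 24.0% of tested genes respectively. The median log2 fold change of all tested genes was 0.03. Of all tested genes, 508 were higher and 485 lower, 51.2% of calls in the higher direction, which became 77.8% with counts scaled to library size only and 83.0% with counts scaled to hepatocyte secreted proteins. With library size only, 6 of the 10 enzymes were lower and 1, Gstp1, was higher, beside 297 lower and 1042 higher of 13734 genes. Scaled to hepatocyte secreted proteins, 5 were lower and 1, Gstp1, was higher, beside 251 lower and 1225 higher of 13734 genes. In bulk tissue, fewer cells of a type and less RNA per cell cannot be told apart.

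**Figure D1:**
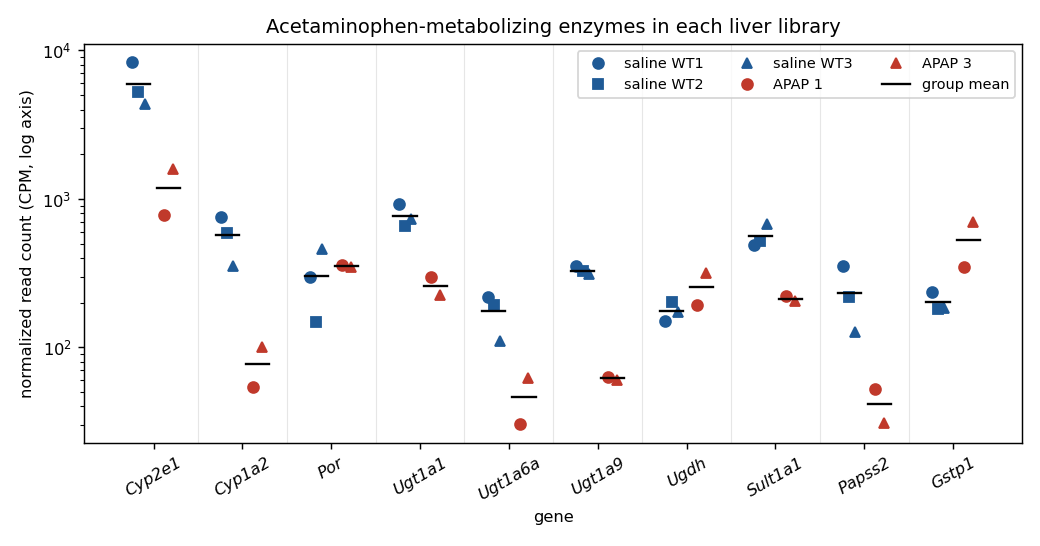
Normalized read counts (CPM, log axis) of the 10 enzymes in each library, with saline libraries in blue, APAP libraries in red and group means as black lines. For 7 enzymes both APAP points lie below every saline point, for Gstp1 both lie above, and for Por and Ugdh the groups overlap.

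Cyp2e1 encodes the ethanol-inducible P450 regarded as a main source of NAPQI. It lies on chromosome 7 of GRCm38 (140763739 to 140774975 in the deposited table, forward strand). Its level was 782 CPM in APAP replicate 1 and 1591 CPM in APAP replicate 3, against 8345, 5260 and 4359 CPM in WT1, WT2 and WT3. Each APAP library was thus below each saline library, although libraries within a group differed 2.04-fold (APAP) and 1.91-fold (saline). The means were 1187 ± 572 CPM (SD, n = 2) and 5988 ± 2090 CPM (SD, n = 3), which gave -2.34 on the log2 scale (SE 0.51, edgeR adjusted p = 0.0418). This call was lost in each of the 5 fits that left out 1 library, with fold changes between -2.95 and -1.91 on the log2 scale and edgeR adjusted p between 0.0553 and 0.205.

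Cyp1a2, a further P450 that oxidizes APAP and a target of the aryl hydrocarbon receptor, had the lowest APAP level relative to saline of the 10 enzymes, in the mean and in the fitted fold change. It is on the reverse strand of chromosome 9 (57676937 to 57683655). Counts were 54.2 and 101 CPM with APAP and 761, 590 and 356 CPM with saline, so the lowest saline library was still well above the higher APAP library. The means were 77.4 ± 32.9 CPM (SD, n = 2) and 569 ± 204 CPM (SD, n = 3), 7.35-fold apart, with a log2 fold change of -2.88 (SE 0.46, edgeR adjusted p = 0.0183). The call was kept in 12 of 14 alternative fits and lost without APAP replicate 1 or without WT2. The highest edgeR adjusted p among these fits was 0.118.

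The promoters of both P450 genes are shown because each carries a TATA box, in capitals, close to the RefSeq start. They are printed 5′ to 3′ on the gene's strand from the RefSeq windows on GRCm38.p6, and each ends at the base before the start (chr7:140763699-140763818 on the forward strand and chr9:57683656-57683775 on the reverse strand).
Cyp2e1: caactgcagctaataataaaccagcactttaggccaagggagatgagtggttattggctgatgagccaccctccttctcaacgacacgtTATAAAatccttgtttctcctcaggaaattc
Cyp1a2: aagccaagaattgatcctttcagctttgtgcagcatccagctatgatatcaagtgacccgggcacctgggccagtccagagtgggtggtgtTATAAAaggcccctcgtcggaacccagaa
The letters TATAAA, searched on both strands, began 31 bases before the start of Cyp2e1 and 29 bases before that of Cyp1a2. They were found in no other window of the 10 enzymes, which had 11 windows because Papss2 has a pair, and in 12.4% of 32851 promoter windows of 250 bases. GENCODE M21 places the beginning of both genes inside the printed stretch. A match of letters is a description and not a bound site.

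Por encodes P450 oxidoreductase, which passes electrons from NADPH to all microsomal P450 enzymes (chromosome 5, 135670033 to 135735326, forward strand). Its level was 361 and 350 CPM with APAP, within the range of the saline libraries at 298, 149 and 462 CPM. The saline libraries differed 3.10-fold among themselves and the APAP libraries 1.03-fold. The log2 fold change was 0.23 (SE 0.45, edgeR adjusted p = 0.796), and it was -0.10 (edgeR adjusted p = 0.91) without WT2, the saline library with the least Por. No difference in Por was detectable with these libraries.

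Ugt1a1, Ugt1a6a and Ugt1a9 encode microsomal UDP-glucuronosyltransferases that accept phenols, and Ugt1a1 is also the enzyme that conjugates bilirubin. The 9 Ugt1a genes of the table lie in 1 locus on chromosome 1 (forward strand), and each joins its own first exon to the same 4 downstream exons. Ugt1a1 spans 88211959 to 88218997. In GENCODE M21 its own first exon has 913 bases and the 4 shared exons 1311 bases, 58.9% of its transcript. One of these exons, exon 3 (chr1:88215795-88215882, protein-coding, 88 bases), is printed from the GENCODE M21 transcripts to show what a read from the shared part holds.
Ugt1a exon 3: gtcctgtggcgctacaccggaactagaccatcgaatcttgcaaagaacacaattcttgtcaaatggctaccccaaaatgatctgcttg
This run occurs unchanged in the transcripts of 9 of the 9 genes. A read within it names no single Ugt1a gene, and how the authors' counting divided such reads is not given in the sources used here. Of the 50-base words in the longest protein-coding transcript, 58.2% in Ugt1a1, 62.0% in Ugt1a9 and 100% in Ugt1a6a also occur in transcripts of other genes, so the 3 levels are uncertain as levels of single genes. An antisense gene, Gm20528, also overlaps these exons on the opposite strand. It was at 4.30 CPM or less in each library.

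Ugt1a1 measured 297 and 224 CPM after APAP against 928, 655 and 730 CPM in WT1, WT2 and WT3. The groups did not overlap, with means of 260 ± 51.7 CPM (SD, n = 2) and 771 ± 141 CPM (SD, n = 3), and the log2 fold change was -1.57 (SE 0.30, edgeR adjusted p = 0.0303). With counts scaled to hepatocyte secreted proteins the same change was not called (edgeR adjusted p = 0.115), within a range of 8.51e-07 to 0.137 over all 14 alternatives. Of the 5 fits without 1 library, Ugt1a1 was called in 1, the fit without WT3.

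Ugt1a6a, the homologue of the human transferase best known for small planar phenols, was at 30.3 and 62.2 CPM after APAP against 219, 194 and 111 CPM with saline. The APAP libraries differed 2.05-fold and the saline libraries 1.97-fold, but none crossed into the other group. The log2 fold change was -1.92 (SE 0.43, edgeR adjusted p = 0.0466), the called enzyme nearest to the threshold. Leaving out any library but WT3 ended the call, with a highest edgeR adjusted p of 0.228.

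Ugt1a9 separated the groups most tightly of the 10 enzymes. Its level was 63.4 and 60.6 CPM with APAP and 351, 327 and 310 CPM with saline, that is 62.0 ± 1.99 CPM (SD, n = 2) against 329 ± 20.8 CPM (SD, n = 3). Within a group the highest library exceeded the lowest by 1.05-fold (APAP) and 1.13-fold (saline), whereas the means were 5.31-fold apart. The log2 fold change was -2.41 (SE 0.24, edgeR adjusted p = 0.00433). It was the only enzyme of the 10 that was called in 14 of 14 alternatives, with fold changes from -2.45 to -1.83 on the log2 scale and a highest adjusted p of 0.038.

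Because the division of reads inside the locus is uncertain, the counts of the 9 Ugt1a genes were also summed to 1 feature, a choice made after seeing the data. The sum was 503 and 431 CPM with APAP and 2000, 1480 and 1517 CPM with saline, so APAP livers held 28.0% of the saline mean. Fitted in place of the single genes, the locus had a log2 fold change of -1.83 (SE 0.31, edgeR adjusted p = 0.0207). The sum lost its call without APAP replicate 1 (0.117), without APAP replicate 3 (0.0966) or without WT2 (0.0861), as edgeR adjusted p. The 3 enzymes together took 74.9% to 80.3% of the counts of the locus in the 5 libraries. Ugt1a1 took 59.0% and 51.9% of them with APAP and between 44.2% and 48.2% with saline, whereas Ugt1a9 took 12.6% and 14.0% with APAP and between 17.6% and 22.1% with saline. These shares did not overlap between the groups; they were not tested and rest on how shared reads were divided.

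**Figure D2:**
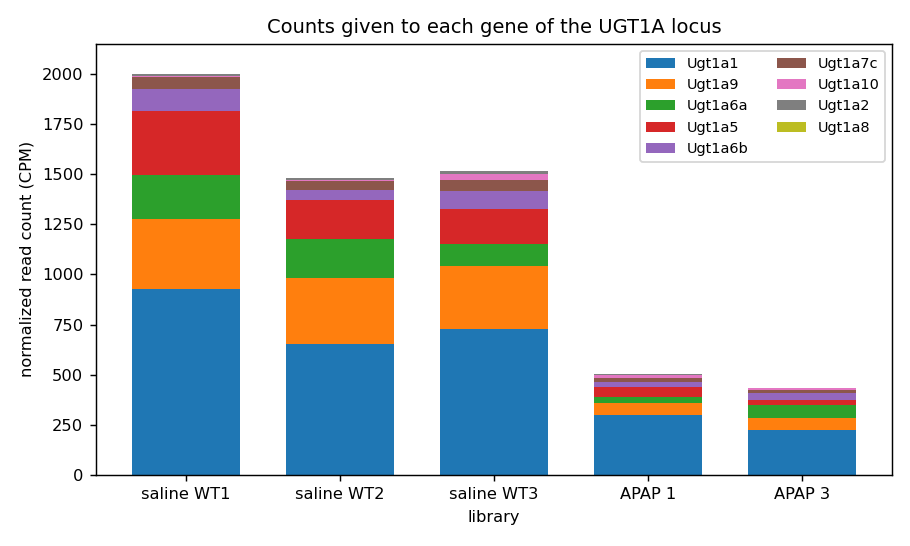
Normalized read counts (CPM) given to the 9 genes of the UGT1A locus, stacked for each library. The stack reaches 503 and 431 CPM in the APAP libraries and between 1480 and 2000 CPM in the saline libraries, with Ugt1a1 as the largest segment in each.

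Ugdh encodes UDP-glucose dehydrogenase, which makes the UDP-glucuronic acid that the transferases consume (chromosome 5, 65413221 to 65435949, reverse strand). Unlike the called transferases it was not lower with APAP, at 193 and 316 CPM against 151, 202 and 174 CPM with saline. APAP replicate 1 lay inside the saline range and APAP replicate 3 above it. The log2 fold change was 0.53 (SE 0.29, edgeR adjusted p = 0.307), between 0.13 and 0.85 when 1 library was left out and never called. Its promoter window held TGACNNNGC, the core of the antioxidant response element, at 94 and 132 bases before the start on either strand. The match at 94 bases, GCGTGGTCA, overlaps a match to GCGTG, the core bound by the aryl hydrocarbon receptor. The former motif was in 10.2% and the latter in 28.2% of promoter windows. Por and Gstp1 held GCGTG as well, and no other enzyme of the 10 held TGACNNNGC.

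Sult1a1 encodes the phenol sulfotransferase that conjugates APAP (chromosome 7, 126672865 to 126676432, reverse strand). It was at 221 and 204 CPM after APAP against 492, 522 and 673 CPM with saline. The APAP libraries lay within 1.08-fold of each other and below all saline libraries. The means were 213 ± 11.8 CPM (SD, n = 2) and 563 ± 96.7 CPM (SD, n = 3), with a log2 fold change of -1.40 (SE 0.27, edgeR adjusted p = 0.0302). Sult1a1 lost its call when counts were scaled to library size only or to hepatocyte secreted proteins (edgeR adjusted p = 0.163), and without APAP replicate 1, APAP replicate 3 or WT2 (highest edgeR adjusted p = 0.157). A stretch of 61 bases overlaps exons of Sgf29 on the opposite strand, and whether counting used strand is not given in the sources used here.

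Papss2 encodes the synthase that makes PAPS from ATP and sulfate (chromosome 19, 32620005 to 32667187, forward strand). Its level was 52.4 and 31.1 CPM with APAP and 356, 218 and 127 CPM with saline. The saline libraries spanned 2.80-fold, the widest range of the 7 called enzymes, yet the lowest of them was above both APAP libraries. The log2 fold change was -2.48 (SE 0.50, edgeR adjusted p = 0.0348), and only the fit without WT3 kept the call among those that left out 1 library (highest edgeR adjusted p = 0.145). Papss1, the other PAPS synthase, did not pass the test, at 10.2 and 15.3 CPM after APAP against 6.74 to 14.2 CPM with saline (edgeR adjusted p = 0.67).

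Gstp1 encodes a pi-class glutathione S-transferase and was the enzyme with the highest APAP level relative to saline. Levels were 349 and 704 CPM with APAP and 237, 181 and 184 CPM with saline, so both APAP libraries were above all saline libraries. The APAP libraries differed 2.02-fold from each other. The log2 fold change was 1.39 (SE 0.34) and missed the threshold (edgeR adjusted p = 0.0576). Over 14 alternatives the adjusted p ran from 0.000928 to 0.259 and the fold change stayed above 0, from 0.79 to 1.88 on the log2 scale. Gstp1 is known to be more abundant in male than in female mouse liver, and the groups differed in Xist and Ddx3y as given above. The part of that difference in its level cannot be told apart from the treatment here.

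The Gstp1 gene lies on the reverse strand of chromosome 19 (4035407 to 4037921 in the deposited table). Transcripts of other genes, chiefly Gstp2, hold 62.3% of its 50-base words. Gstp2 itself had 2.47 CPM or less in each library, and how the reads that the pair share were assigned is not given in the sources used here. The stretch before its RefSeq start (chr19:4037913-4038032, GRCm38.p6, reverse strand) is shown because it holds a match to TGANTCA, the motif of AP-1 factors, in capitals.
Gstp1: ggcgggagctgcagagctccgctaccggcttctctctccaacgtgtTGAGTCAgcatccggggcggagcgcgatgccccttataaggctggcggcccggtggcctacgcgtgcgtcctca
The match began 74 bases before the start, on either strand searched, and overlapped no other motif searched. The antioxidant element was searched only as TGACNNNGC, which has C where this stretch, TGAGTCAGC, has G. Other forms of that element were not searched. The promoter of Ugt1a6a held TGANTCA too, at 124 bases, and so did 6.75% of promoter windows. GENCODE M21 places the beginning of Gstp1 inside the printed stretch.

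**Figure D3:**
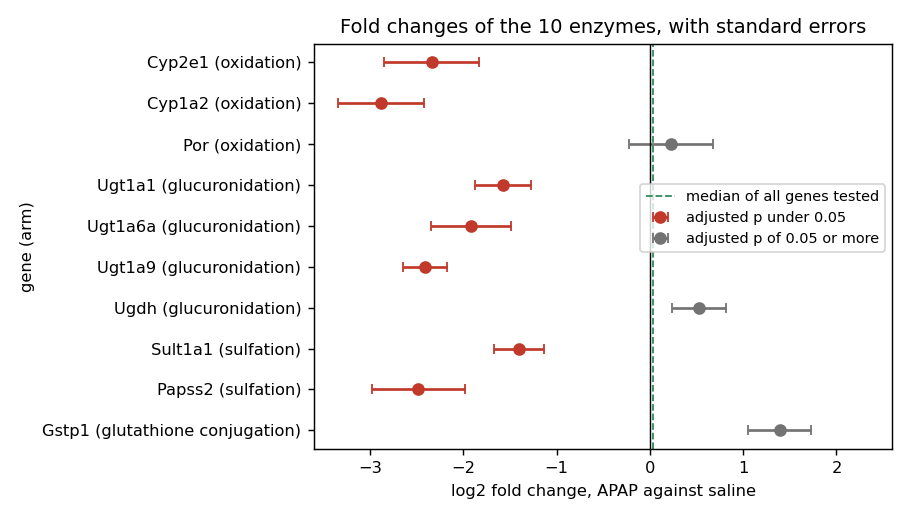
Fitted log2 fold changes of the 10 enzymes, APAP against saline, with bars of 1 standard error, red where the edgeR adjusted p was under 0.05 and grey otherwise. The 7 red points lie between -2.88 and -1.40, and the grey points of Por, Ugdh and Gstp1 lie at 0.23, 0.53 and 1.39, with the dashed line at the median of all genes tested, 0.03.

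The calls depended on which libraries entered. This held for all tested genes too, of which 993 of 13734 were called in the main fit. Of all tested genes, 510 of 13700 were called without WT1, 165 of 13443 without WT2 and 922 of 13481 without WT3. Without WT2, 1 of the 10 enzymes was called, and this was Ugt1a9. Without WT1 there were 3 (Cyp1a2, Ugt1a9 and Sult1a1), and without WT3 there were 6 (all 7 except Cyp2e1). A fit without an APAP replicate leaves 1 APAP library, so its calls are not counted here. The fold changes of the 7 enzymes stayed negative in all 14 alternatives, which include the 5 fits without 1 library.

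Levels can be compared between genes only per length, and CPM per kilobase of exon in GENCODE M21 was used for this. In saline Cyp2e1 was far above the other enzymes, at 2775 ± 969 CPM per kilobase (SD, n = 3), and its lowest library was above the highest of Sult1a1, the next at 373 ± 64.2 CPM per kilobase. Sult1a1, Ugt1a1 (347 CPM per kilobase) and Cyp1a2 (283 CPM per kilobase) overlapped with their neighbours in this order. Ugt1a9 (150 CPM per kilobase) and Gstp1 (130 CPM per kilobase) overlapped with each other, and so did Por, Papss2, Ugt1a6a and Ugdh, each with the next, from 75.3 down to 26.0 CPM per kilobase. With APAP the order began with Cyp2e1 at 550 ± 265 CPM per kilobase (SD, n = 2) and Gstp1 at 340 ± 162 CPM per kilobase (SD, n = 2), whose ranges overlapped. Sult1a1, Ugt1a1 and Por followed at 141, 117 and 88.4 CPM per kilobase without overlap between neighbours. The last place was held by Ugdh in saline and by Ugt1a6a with APAP, at 10.7 CPM per kilobase.

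The order depends on the length used. The gene length recovered from the deposited FPKM was 757 bases for Gstp1 and 3058 bases for Sult1a1, against 1548 and 1507 bases of exon in GENCODE M21. With the authors' lengths Sult1a1 took rank 5 in saline at 184 CPM per kilobase, and Gstp1 took rank 1 with APAP at 696 CPM per kilobase, above Cyp2e1 at 649 CPM per kilobase.

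Within a library, the ratio of 2 counts does not change with the scaling of that library. The log2 ratio of Cyp2e1 to each conjugation enzyme was therefore read in every library, as a description with no test. Against Gstp1 it was 1.16 and 1.18 with APAP and 5.14, 4.86 and 4.57 with saline, a mean 12.9-fold lower with APAP. Against Ugdh it was 2.02 and 2.33 with APAP and 5.78, 4.70 and 4.65 with saline, 7.31-fold lower. Relative to these genes, neither of which was called, Cyp2e1 was thus low in both APAP libraries beside every saline library.

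Against the transferases that fell, the Cyp2e1 ratio moved less. The log2 ratio to Ugt1a6a was 4.69 and 4.68 with APAP and between 4.76 and 5.29 with saline, just below it. For Ugt1a1, Ugt1a9, Sult1a1 and Papss2 the groups overlapped, with mean differences of -0.80, 0.04, -0.98 and 0.04 on the log2 scale. APAP replicate 3 had the higher Cyp2e1 ratio of the APAP libraries for each of these 4. Thus 3 of the 7 conjugation enzymes had a lower Cyp2e1 ratio in both APAP libraries than in any saline library, beside 91.1% of the 13733 other tested genes. This count was 7 without APAP replicate 3 and 5 without WT3. Leaving out a library can only keep or add such separations, for any gene, and the share of all genes in those sets is not given. With Cyp1a2 as numerator and all libraries, the count was 5 of 7, beside 94.0% of the other tested genes. The mean ratio of Cyp1a2 to Gstp1 was 18.3-fold lower. The Cyp2e1 ratio to its electron donor Por was 1.12 and 2.19 with APAP and between 3.24 and 5.14 with saline.

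**Figure D4:**
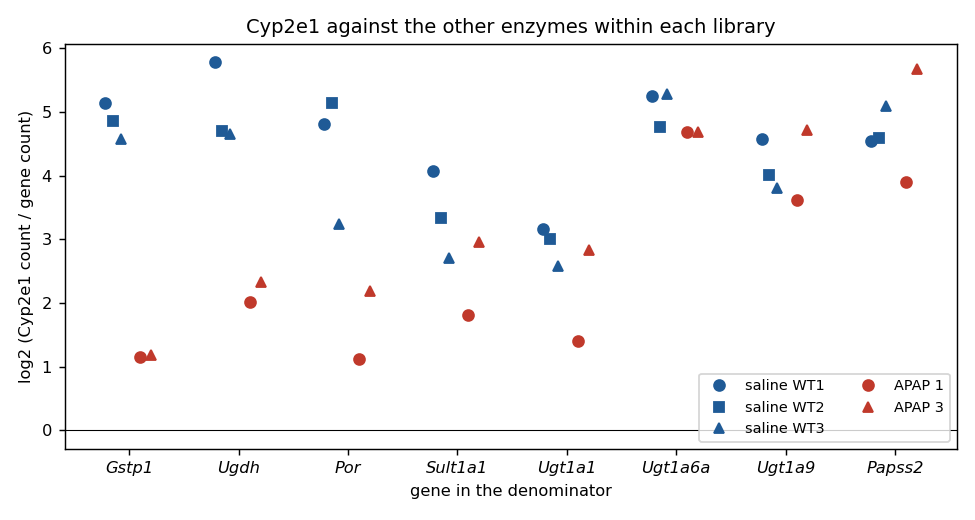
Log2 ratio of the Cyp2e1 count to the count of each other enzyme except Cyp1a2 within each library, with saline libraries in blue and APAP libraries in red. The ratios to Gstp1, Ugdh, Por and Ugt1a6a separate the groups, and those to Sult1a1, Ugt1a1, Ugt1a9 and Papss2 overlap.

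The genes around these enzymes were read from lists of the same pathways. The 57 tested genes beyond the 10 enzymes had a median log2 fold change of -0.44, beside 0.03 for all genes tested. At an edgeR adjusted p under 0.05, 3.53% of all tested genes were lower and 3.70% higher, beside each list count below. Of the 57, 10 were lower and 1 was higher at this threshold. These calls rest on the full set of libraries: edgeR called 0 of the 57 without WT2, 5 without WT1 and 12 without WT3. Of all tested genes it called 165 of 13443, 510 of 13700 and 922 of 13481 in the same fits. Without WT2, 14 of the 57 had an unadjusted edgeR p under 0.05, and the share of all genes there is not given. Cyp3a11, Cyb5b, Ces1e, Slc26a1 and Ggt6, all given below, were called without WT3 and in no other fit that left out 1 library. Among 5 further genes of oxidation and electron supply, Cyp3a11, the main mouse CYP3A enzyme and an oxidizer of APAP, fell from 3628, 2695 and 1768 CPM with saline to 614 and 241 CPM (log2 fold change -2.66, SE 0.55, edgeR adjusted p = 0.0374). Cyb5b, an outer mitochondrial membrane cytochrome b5, fell as well (-1.76, edgeR adjusted p = 0.0424). Cyb5a, the microsomal cytochrome b5 that can supply electrons to P450, did not pass the test, at -0.59 (edgeR adjusted p = 0.199). With the 10 enzymes included, 4 of 8 genes of this list were lower and 0 higher.

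In the UGT1A list, 5 of 8 tested genes were lower and 0 higher. Beyond the 3 enzymes these were Ugt1a5 (-2.62, edgeR adjusted p = 0.0153) and Ugt1a7c (-1.46, edgeR adjusted p = 0.0187), subject to the same shared exons. Ugt1a8 was not tested, with 0.267 CPM or less in each library. Of the 6 genes that supply UDP-glucuronic acid, 0 were lower and 1 was higher, with a median of 0.15. This was the row named Pgm1, at 25.9 and 15.6 CPM after APAP against 4.65 to 7.01 CPM with saline (1.92, edgeR adjusted p = 0.0204). The row named Pgm2 was more abundant, at 201 and 231 CPM after APAP against 290, 232 and 225 CPM with saline. It was not called (-0.21, edgeR adjusted p = 0.644). Ugp2, which makes the UDP-glucose used by Ugdh, was at 231 and 324 CPM against 527, 552 and 275 CPM and did not pass the test (edgeR adjusted p = 0.30). Of the genes that cleave or retain glucuronides, Ces1e, the esterase that holds beta-glucuronidase in the endoplasmic reticulum, fell (-1.84, edgeR adjusted p = 0.0413) and Gusb, the glucuronidase, did not pass (-0.49, edgeR adjusted p = 0.23).

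Among 5 tested phenol-type sulfotransferases, only Sult1a1 was called in the main fit. Sult1d1 was at 347 and 159 CPM after APAP against 439 to 545 CPM with saline (-0.98, edgeR adjusted p = 0.165). Sult1e1, the estrogen sulfotransferase, was at 79.7 and 11.4 CPM after APAP against 1.79, 2.32 and 12.1 CPM with saline. Its log2 fold change of 3.05 was not called (edgeR adjusted p = 0.118). The level was highest in APAP replicate 1, whereas APAP replicate 3 lay just below WT3. In the edgeR fit without WT3, Sult1e1 was called. For PAPS supply and turnover, 3 of 10 genes were lower and 0 higher. They were Papss2, the sulfite oxidase gene Suox (-1.97, edgeR adjusted p = 0.0125), which makes sulfate from sulfite, and the sulfate transporter gene Slc26a1 (-1.44, edgeR adjusted p = 0.0257).

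Gclc, the catalytic subunit of the rate-limiting enzyme of glutathione synthesis, was at 694 and 942 CPM after APAP against 438, 565 and 316 CPM with saline. The groups did not overlap, but the change of 0.90 (SE 0.32) did not pass the test (edgeR adjusted p = 0.148). None of the 3 genes of glutathione synthesis was called. Of 8 tested genes of mercapturate formation, 2 were lower and 0 higher, and these were Ggt6 (-1.71, edgeR adjusted p = 0.0247) and the aminoacylase gene Acy1 (-1.40, edgeR adjusted p = 0.0185). Acy1 removes acetyl groups from acylated amino acids and mercapturates. None of the 4 conjugate exporters was called, with Abcc2 at -0.37, Abcc3 at 0.04, Abcc4 at 0.74 and Abcg2 at 0.71 on the log2 scale.

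Of 11 regulators of these genes, 1 was lower and 0 higher, with a median of -0.52. This was Stat5b, the growth hormone signal transducer on which sex differences of mouse liver depend, at 29.5 and 28.7 CPM with APAP and 97.1, 84.9 and 80.3 CPM with saline (-1.59, edgeR adjusted p = 0.00981). The nuclear receptor genes Nr1i2 (PXR), Nr1i3 (CAR) and Hnf4a did not pass the test, at -0.52, -1.01 and -0.95 on the log2 scale (edgeR adjusted p between 0.172 and 0.208). Ahr, the aryl hydrocarbon receptor upstream of Cyp1a2, was at -0.73 (edgeR adjusted p = 0.143) and Nfe2l2, which encodes NRF2, at 0.30 (edgeR adjusted p = 0.427).

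**Figure D5:**
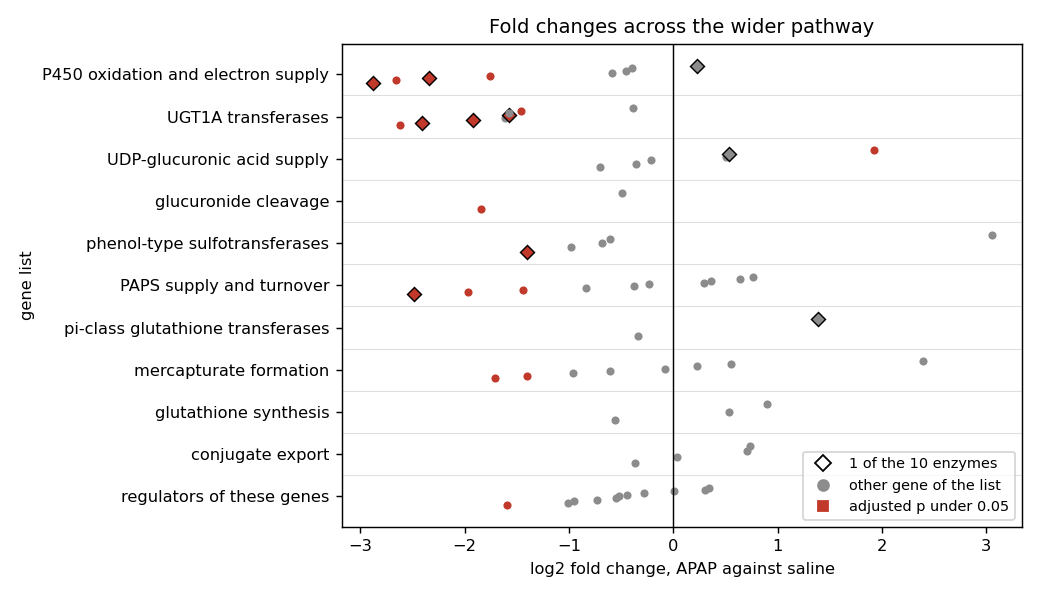
Fitted log2 fold changes, APAP against saline, of the tested genes of 11 pathway lists, with the 10 enzymes as diamonds and genes with an edgeR adjusted p under 0.05 in red. Red points lie at or below -1.40 in 7 of the lists shown, and the only red point above 0 is Pgm1 at 1.92.

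The genes whose pattern over the 5 libraries was most like a given enzyme were named by the root mean square difference of centred log2 CPM, among 7882 genes averaging 10 CPM or more. For Cyp2e1 they included Tcea3 (0.177) and Gulo, the gene of the last enzyme of vitamin C synthesis (0.201). For Ugdh they were Nab2, Kbtbd2 and Cdk2ap2 (0.0571 to 0.0981), and for Sult1a1 they were Pla1a, Cry1 and Dleu2 (0.113 to 0.126). For Gstp1 they were Sdf2l1 (0.0795), Hsp90ab1 (0.141) and Igsf8 (0.160), of which Sdf2l1 and Hsp90ab1 encode chaperone proteins. Gulo was at 39.3 and 110 CPM after APAP against 324 to 471 CPM with saline.

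Markers of cell types moved with these results, and their part in the results was not tested. Beside the marker counts, 3.53% of all tested genes were lower and 3.70% higher at an edgeR adjusted p under 0.05. Of 12 markers of centrilobular hepatocytes, the zone richest in Cyp2e1 and Cyp1a2, 9 were lower and 0 higher, with a median of -3.12, and their summed level was 495 to 515 CPM with APAP and 3740 to 4300 CPM with saline. Glul, the glutamine synthetase of the innermost zone, was at 102 and 82.9 CPM against 965 to 1489 CPM. Of 12 periportal markers, 4 were lower and 0 higher, with a median of -1.15 and a sum of 7744 to 8531 CPM against 14212 to 15337 CPM. Of 14 hepatocyte secreted proteins, 1 was lower and 0 higher, with a median of -0.64 and a sum of 104014 to 161250 CPM against 158850 to 227578 CPM. Neutrophil genes were higher, with 10 of 13 tested called, 0 lower and a sum of 750 to 2182 CPM against 15.3 to 72.1 CPM. The sum was mostly Lcn2, which stressed hepatocytes also express, while Ly6g was at 0 in the saline libraries and at 0.235 and 0.494 CPM with APAP. Of 7 tested monocyte genes 2 were higher (sum 246 to 346 CPM against 360 to 687 CPM, mostly F10, a clotting factor that hepatocytes make, and 86.2 to 143 CPM against 68.1 to 103 CPM without it), and of 7 tested cholangiocyte genes 3 were higher (sum 370 to 388 CPM against 63.9 to 67.9 CPM), mostly Spp1. No gene was called among those of Kupffer cells (sum 238 to 472 CPM against 254 to 331 CPM), sinusoidal endothelial cells (177 to 246 CPM against 175 to 296 CPM), stellate cells (386 to 559 CPM against 541 to 659 CPM), lymphocytes (5.11 to 6.92 CPM against 6.34 to 9.16 CPM) and erythroid cells (44.1 to 145 CPM against 60.7 to 77.8 CPM).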

How the data were processed

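Liver RNA of WT mice was sequenced by the authors on an Illumina NovaSeq platform after APAP (300 mg/kg, 12 hours) or saline. The authors' methods name HISAT2 for the read counts and StringTie for FPKM, and the submitters' processing notes name GRCm38 and mm10. The annotation, the strand setting and the program versions are not given in the sources used here. The deposited counts are whole reads per gene without normalization. The deposited FPKM of the APAP libraries were used here only to recover the gene length, and 3 FPKM columns of the saline libraries matched no sample and were not used. APAP replicate 2 was not analysed here.

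Tests used edgeR 4.0.16 under R 4.3.3. After filterByExpr with a minimum count of 10 and a total of 15, counts were normalized by TMM and compared by the quasi-likelihood test with Benjamini-Hochberg adjustment at 0.05. The SE of a log2 fold change is its size divided by the square root of F. The design had been written for 3 APAP libraries and was kept with 2. Replicates of a group differed by more than sampling noise allows (chi-square at least 43.2 times its degrees of freedom), and each was counted as 1 sample. Likelihood ratio, exact and DESeq2 1.42.0 tests, other scalings and filters, and each library left out in turn were the 14 alternatives. The fit was tested on simulated counts with known changes. Total counts were 13378445 to 15976339 per library.

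The genes named are the 10 enzymes, genes of pathway lists, cell type markers, sex-linked genes, genes sharing exons or sequence, and for Cyp2e1, Ugdh, Sult1a1 and Gstp1 the 3 most alike genes. Some items of these lists are not reported here. The enzymes and lists were chosen with earlier results of these data known. Of 34745 identifiers, 34267 were found in GENCODE M21, 27699 of them with the same start and end as in the deposited table. This was so for 6 of the 10 enzymes. Exons and transcripts come from GENCODE M21, and promoters (10 of 10 enzymes matched) come from RefSeq (GRCm38.p6). Motifs were searched on both strands in the 250 bases before each start, with Python 3.11.15.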

Additional observations from a re-analysis of the deposited data

How the results depend on the processing

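The fold changes of the 7 called enzymes kept their direction in all 14 alternatives, and that of Por reversed to -0.10 without WT2, within a range of -0.10 to 0.67 when 1 library was left out. Of 140 member fits, 107 gave the main call, 25 lost it, 7 (all Gstp1) gained one and 1 reversed. With 1 library left out, the number of called enzymes ran from 1 to 6, of all genes from 165 to 922, and of the wider pathway from 0 to 12. The number of conjugation enzymes whose Cyp2e1 ratio separated the groups, 3, ran from 3 to 7 with 1 library left out (7 without APAP replicate 3, 5 without WT3), and was 5 with Cyp1a2 in place of Cyp2e1. Of all genes, 993 were called in the main fit, 1835 by the likelihood ratio test, 1776 by the exact test, 2093 by DESeq2 and 3229 at a fold change of 1.5 with an unadjusted p under 0.05. Of the wider pathway genes, 11 were called in the main fit, 18 by DESeq2 and 23 at the unadjusted threshold. The cause of these differences was not tested, except that leaving out a library leaves fewer samples. Where 1 APAP library remained, the spread was estimated from the saline libraries, and the lone library was assumed to vary as they do. Scaling to library size only or to hepatocyte secreted proteins moved the median of all genes by 0.39 and 0.56 on the log2 scale. No paired analysis was possible because WT1, WT2 and WT3 could not be matched to the numbered saline samples, and nothing ties their numbers to those of the APAP replicates. Depth did not limit the 10 enzymes, the lowest of which was at 30.3 CPM against a floor of 0.269 CPM or less.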
